A study of Mus musculus with 10 samples.

Results

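The 32 genes described here encode enzymes of cholesterol synthesis (17 genes), enzymes of fatty acid synthesis, elongation and desaturation (8), regulators of the SREBP transcription factors (5) and carriers of cholesterol (2). They were taken as a named list from the 24538 genes in the count files and all 32 were found there. Their RNA was measured in cells sorted as CD31+/CD45-, a gate that keeps cells with the endothelial adhesion molecule CD31 and removes leukocytes bearing CD45. The 5 libraries of the first group came from lung metastases under 1 mm in diameter, grown in C57BL6/J females that had received E0771-LG mammary tumour cells by tail vein at 6 to 8 weeks of age, with tissue of 2 to 4 mice in each pool. The other 5 came from normal lung. All 10 libraries carry the labels wild type, C57BL6/J and 8 to 10 weeks, and both tissues were digested with transcription inhibitors in the buffer. Whether the normal lungs were pooled, and whether libraries of 1 group came from separate animals, is not given in the labels, so the p-values below measure the spread between these libraries, which may be technical in part.

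Cholesterol is built from acetyl-CoA through mevalonate, isoprenoids, squalene and lanosterol, and long-chain fatty acids are built from acetyl-CoA through malonyl-CoA, then elongated and desaturated. Both routes are under the control of SREBP transcription factors, which are carried from the endoplasmic reticulum by SCAP for cleavage when sterols are low and are held back by the INSIG proteins when sterols are high. In endothelial cells the products of fatty acid synthase serve membranes and the palmitoylation of signalling proteins, and dividing cells in general draw on both routes for new membrane.

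Counts assigned to genes came to 21.7 to 54.3 M per metastasis library and 41.0 to 79.7 M per normal library, so counting error was small for any member well above 1 CPM and the spread between the 5 libraries of a group sets the precision. Replicates 1 and 2 of both groups held more of the ribosomal RNA precursor Rn45s than replicates 3 to 5 (at least 1.45% of gene counts against at most 1.24% in metastases, and at least 2.83% against at most 0.469% in normal lung), so the called members are also given within each set. The sorted label was checked first. Pecam1, which encodes CD31, averaged 644 ± 508 CPM in metastases and 2415 ± 864 CPM in normal lung (SD, n = 5 each; log2 fold change -1.91 ± 0.47 SE, edgeR adjusted p = 0.00549). The summed level of 19 pan-endothelial markers was 1190 to 7724 CPM in metastases and 13546 to 26198 CPM in normal lung. Of the 19, 16 were lower in metastases, beside 8.22% of all tested genes. Markers of several other cell types were higher. Ptprc, which encodes CD45, averaged 121 ± 25.6 CPM in metastases and 17.8 ± 7.31 CPM in normal lung (SD, n = 5 each; log2 fold change 2.77 ± 0.57, adjusted p = 0.0012). These levels stand beside every result below. In bulk RNA fewer cells of a type and less RNA per cell cannot be told apart.

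Levels are given as CPM, counts-per-million on TMM-scaled library sizes, and a gene is called higher or lower when its adjusted p in the edgeR quasi-likelihood test, corrected by the Benjamini-Hochberg method over the 11823 genes tested, was under 0.05. Of the 32 members 31 had enough counts to be tested. Fasn, Scd1, Sqle, Elovl6 and Fads2 were higher in metastases, which is 16.1% of the tested members beside 12.0% of all tested genes. Ebp was lower, where 8.22% of all genes were lower. The other 25 did not pass. The members' called count in either direction, 6 of 31, stood beside 20.2% of all genes, and 7 members had an unadjusted p under 0.05, beside 31.5% of all genes. The median log2 fold change of the tested members was 0.74 and that of all tested genes 0.06, and 21 of the 31 were above 0. Groups did not overlap for 4 members, all higher in each metastasis library than in any normal library, where 8.50% of all genes were separated in that direction and 6.17% in the opposite one.

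The counts by step stand beside 12.0% of all tested genes higher, 8.22% lower and an all-gene median log2 fold change of 0.06. By step of the routes, among the 8 fatty acid genes 4 were higher and none lower, with a median log2 fold change of 1.53. Of the 3 squalene genes 1 was higher (median 1.97), and of the 8 genes from lanosterol to cholesterol none was higher and 1 was lower (median 1.04). No call was made among the 5 tested mevalonate and isoprenoid genes (median -0.08), the 5 SREBP regulators (median 0.23) or the 2 carriers (median -0.67). These medians are descriptions, since groups of a few genes were not tested as sets.

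**Figure D1:**
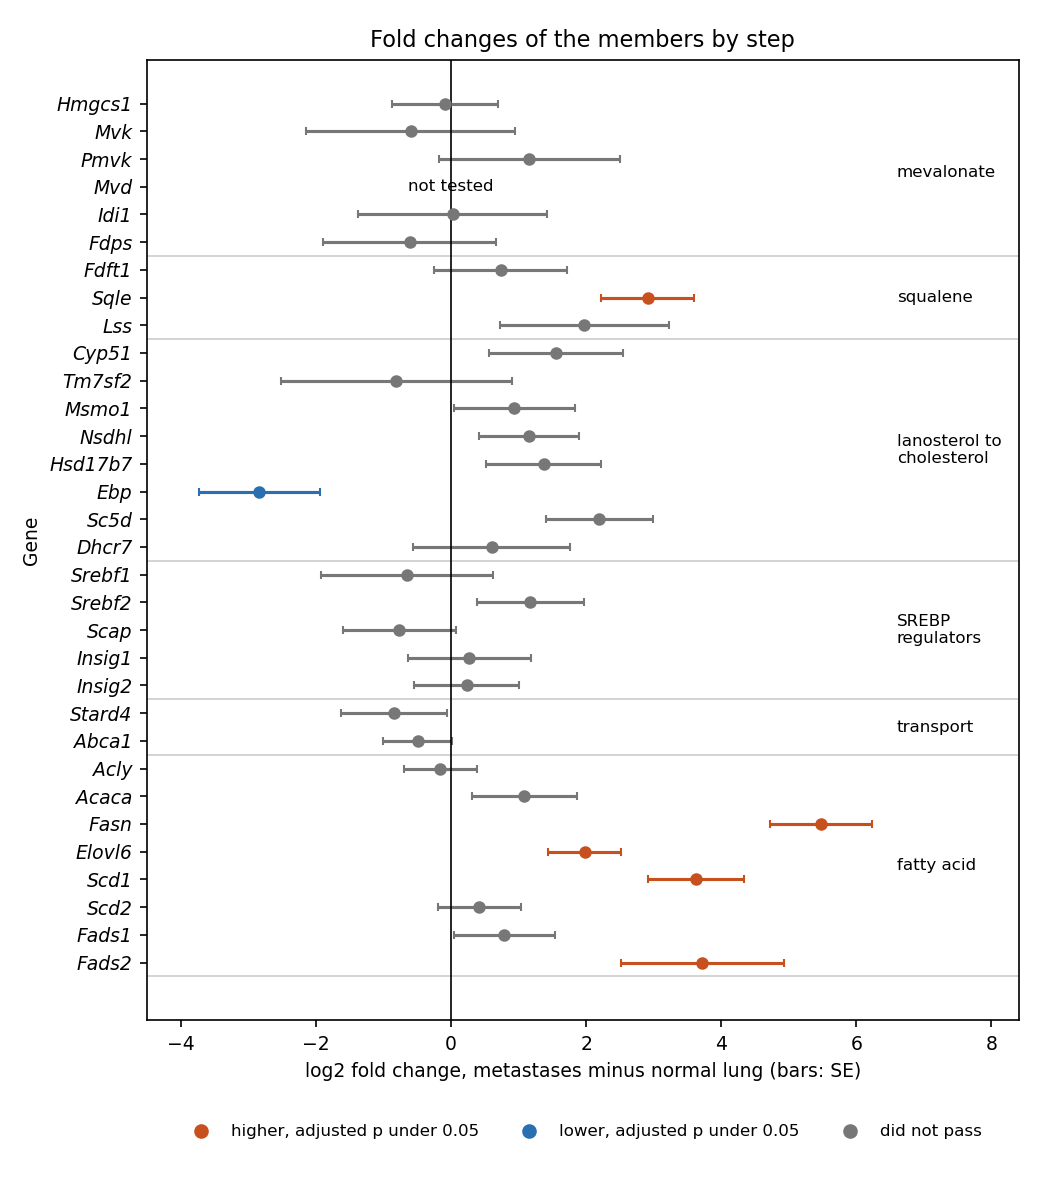
Log2 fold change (x axis, metastases minus normal lung) of each member, ordered by step, with bars of 1 SE from the edgeR fit. Fasn lies farthest to the right at 5.47 and Ebp farthest to the left at -2.84, and most grey points have bars that reach close to 0 or across it.

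Promoter sequence was available from the RefSeq table (GRCm38.p6) for 25 of the 32 members, in windows from 250 bases before to 50 bases after each start. The called Sqle and Scd1 had no window, nor did Scd2, Fads1, Fdps, Fdft1 and Stard4. The shares of genes given for comparison cover every gene with a window, expressed here or not. Dhcr7, Srebf1 and Insig2 had 3 windows, Pmvk and Scap 2, and the other members with sequence 1. More windows give more room for a match, and the shares were not adjusted for this. Motifs were searched on both strands. The CCAAT box, bound by NF-Y, was in the windows of 20 of the 25 members (80.0%) and of 41.1% of 27025 genes, and the GC box GGGCGG, bound by Sp-family factors, in 21 (84.0%) and 38.2%. The E-box CACGTG was in 6 members (24.0%), namely Abca1, Dhcr7, Hsd17b7, Insig1, Sc5d and Scap, and in 8.09% of genes. TCACCCCAC, the core of the classical sterol regulatory element, was in 1 member (4.00%), Hmgcs1, and in 0.614% of genes. No match of a motif in a member shared bases with a match of another motif. The 4 sequences below are the bases before the start of the most changed member, of another higher member, of the lower member, and of the uncalled member with the sterol element. Each runs 5′ to 3′ on the gene's strand, with capitals marking motif matches (ATTGG is CCAAT and CCGCCC is GGGCGG on the other strand).
Fasn (chr11:120824548-120824797, minus strand): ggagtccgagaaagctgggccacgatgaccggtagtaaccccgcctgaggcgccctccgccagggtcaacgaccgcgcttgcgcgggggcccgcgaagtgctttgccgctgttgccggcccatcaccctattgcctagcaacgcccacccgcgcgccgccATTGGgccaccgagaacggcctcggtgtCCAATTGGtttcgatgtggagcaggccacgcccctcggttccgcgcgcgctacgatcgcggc
Elovl6 (chr3:129532136-129532354, plus strand): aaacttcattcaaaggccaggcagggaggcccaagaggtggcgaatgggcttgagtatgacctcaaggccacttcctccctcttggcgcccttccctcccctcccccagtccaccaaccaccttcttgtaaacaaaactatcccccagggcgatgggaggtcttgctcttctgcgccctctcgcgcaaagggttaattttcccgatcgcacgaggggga
Ebp (chrX:8193513-8193762, minus strand): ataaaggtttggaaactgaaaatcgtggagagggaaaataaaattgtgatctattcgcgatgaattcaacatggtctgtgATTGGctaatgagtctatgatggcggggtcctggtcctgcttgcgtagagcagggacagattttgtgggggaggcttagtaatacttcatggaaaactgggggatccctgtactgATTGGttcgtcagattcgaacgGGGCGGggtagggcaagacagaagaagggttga
Hmgcs1 (chr13:119690101-119690350, plus strand): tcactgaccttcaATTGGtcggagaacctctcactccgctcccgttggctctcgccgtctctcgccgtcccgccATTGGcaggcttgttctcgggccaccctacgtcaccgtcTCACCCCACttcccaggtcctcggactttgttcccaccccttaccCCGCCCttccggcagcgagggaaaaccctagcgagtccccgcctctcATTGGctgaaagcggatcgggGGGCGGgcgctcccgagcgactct
The Fasn sequence held 3 CCAAT boxes, of which a pair on opposite strands shares bases, and no GC box. Elovl6 held none of the 4 motifs in the 219 bases printed or in the rest of its window. Ebp held 2 CCAAT boxes and 1 GC box, and Hmgcs1 held 3 CCAAT boxes, 2 GC boxes and the sterol element. A match is a run of letters and not a measured binding site.

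Among the members the largest differences were in fatty acid genes. Fasn (chr11:120805846-120824547, minus strand, GRCm38), the fatty acid synthase that makes palmitate, had 82.1, 255, 24.1, 137 and 156 CPM in metastasis replicates 1 to 5, against 4.84, 4.61, 1.86, 1.98 and 1.40 CPM in normal replicates 1 to 5. The lowest metastasis library was above the highest normal library, and every normal library was under 5 CPM. The means were 131 ± 86.4 CPM in metastases and 2.94 ± 1.65 CPM in normal lung (SD, n = 5 each), a log2 fold change of 5.47 ± 0.76 (edgeR adjusted p = 1.79e-05), or 44.4-fold. Within libraries 1 and 2 of both groups the log2 fold change was 5.17 (adjusted p = 0.00256), and within libraries 3 to 5 it was 5.90 (0.0019).

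Scd1 (chr19:44394455-44407879, minus strand), a stearoyl-CoA desaturase that makes oleate from stearate, had 240, 156, 98.4, 44.5 and 76.0 CPM in metastases, against 12.4, 2.21, 21.9, 6.05 and 7.24 CPM in normal lung. All metastasis libraries exceeded all normal ones. The means were 123 ± 76.9 CPM in metastases and 9.96 ± 7.59 CPM in normal lung (SD, n = 5 each), and the log2 fold change was 3.62 ± 0.71 (adjusted p = 0.000742). It was 4.78 within libraries 1 and 2 (adjusted p = 0.00346) and 2.62 within libraries 3 to 5 (0.0483). Scd2 (chr19:44293674-44306864, plus strand), the neighbouring paralog with the same reaction, had 81.3, 112, 47.3, 55.7 and 14.2 CPM in metastases and 42.6, 54.8, 61.7, 47.4 and 26.4 CPM in normal lung. Its groups overlapped, and its log2 fold change of 0.42 had an approximate 95% interval of -0.79 to 1.62 (adjusted p = 0.696). Reads shared by these close copies may be lost or split by the counting.

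Elovl6 (chr3:129532355-129638495, plus strand), which elongates palmitate to stearate, was the steadiest of the higher members within the metastases. Its metastasis libraries had 171, 143, 205, 163 and 133 CPM and its normal libraries 75.1, 36.1, 19.7, 11.5 and 64.3 CPM. The highest metastasis value was 1.54 times the lowest, where the same ratio among normal libraries was 6.54. The means were 163 ± 27.9 CPM in metastases and 41.3 ± 27.6 CPM in normal lung (SD, n = 5 each; log2 fold change 1.98 ± 0.54, adjusted p = 0.011). Within libraries 1 and 2 alone the value of 1.52 did not pass (adjusted p = 0.318), and within libraries 3 to 5 it was 2.38 (0.034).

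Fads2 (chr19:10062765-10101746, minus strand), the delta-6 desaturase that starts the conversion of dietary linoleate and alpha-linolenate to longer polyunsaturated acids, had 25.9, 36.9, 16.8, 3.89 and 13.1 CPM in metastases, against 1.64, 0.179, 0.212, 4.64 and 0.648 CPM in normal lung. Normal replicate 4 lay above metastasis replicate 4, so the groups overlapped. The log2 fold change was 3.72 ± 1.20 (adjusted p = 0.0298). This call was narrow. It was kept in 5 of 10 fits that left out a library and lost without metastasis replicate 2 (3.34, adjusted p = 0.0712) or without normal replicate 1, 2, 3 or 5 (3.41 to 3.74, with the highest adjusted p at 0.0685). It did not pass within libraries 1 and 2 (5.14, adjusted p = 0.142) or within libraries 3 to 5 (2.60, 0.269). Fads1 (chr19:10182888-10196877, plus strand), the delta-5 desaturase of the same chain, had 156, 33.1, 26.7, 61.7 and 13.9 CPM in metastases and 83.5, 38.8, 12.1, 23.8 and 10.7 CPM in normal lung (log2 fold change 0.79 ± 0.75, adjusted p = 0.521), with overlapping groups.

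The genes that supply the first steps did not pass. Acly, ATP citrate lyase, which makes cytosolic acetyl-CoA, had 32.6, 97.2, 53.9, 77.8 and 129 CPM in metastases and 111, 70.8, 86.0, 34.8 and 133 CPM in normal lung. Its log2 fold change of -0.16 had an approximate 95% interval of -1.21 to 0.90 (adjusted p = 0.88). Acaca, acetyl-CoA carboxylase, which makes malonyl-CoA for the synthase, had 30.6, 39.0, 82.1, 20.4 and 23.3 CPM in metastases and 33.9, 12.7, 3.39, 20.7 and 21.3 CPM in normal lung (log2 fold change 1.09, interval -0.44 to 2.61, adjusted p = 0.365). Its counts are uncertain where it overlaps Gm11437 on the opposite strand. The intervals of both genes end below the 3.99 at which that of Fasn begins. Fasn had the largest log2 fold change of the tested members, which favours such a gap, and differences between genes were not tested.

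**Figure D2:**
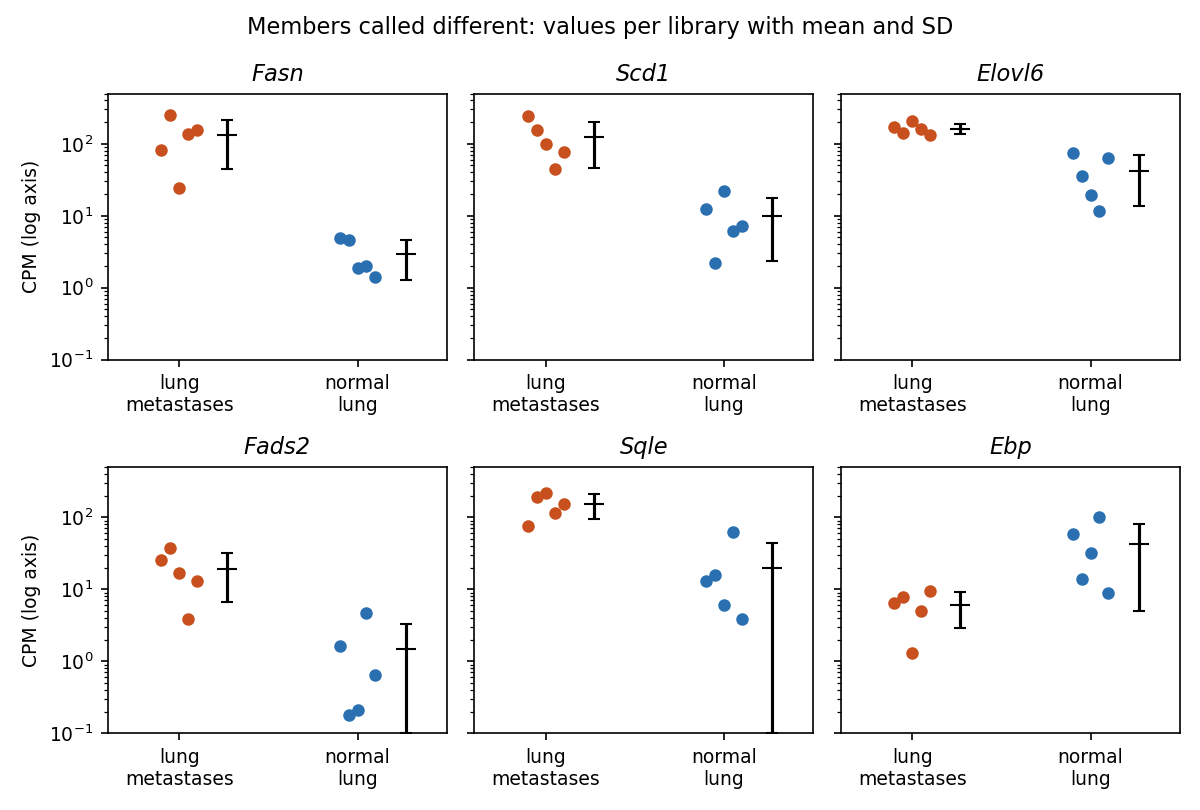
Level of the 6 called members in every library (y axis, CPM on a log scale), with metastases left and normal lung right. Points are libraries in replicate order and the bars beside them are the mean with 1 SD, cut at the lower edge where the mean minus the SD falls below the axis. Fasn, Scd1, Elovl6 and Sqle show no overlap, Fads2 and Ebp do.

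In the sterol route the higher gene was Sqle (chr15:59315077-59331192, plus strand), squalene epoxidase, an oxygen-dependent and rate-limiting step. It had 75.8, 190, 220, 116 and 152 CPM in metastases, against 12.9, 15.8, 6.12, 61.6 and 3.81 CPM in normal lung. Normal replicate 4 stood apart at 61.6 CPM and still lay under the lowest metastasis library. The means were 151 ± 57.5 CPM in metastases and 20.0 ± 23.7 CPM in normal lung (SD, n = 5 each; log2 fold change 2.91 ± 0.69, adjusted p = 0.00359). Within libraries 1 and 2 the log2 fold change was 3.23 (adjusted p = 0.0617) and within libraries 3 to 5 it was 2.75 (0.0625), of like size with neither passing in the smaller sets. The neighbours of Sqle in the route did not pass. Fdft1, squalene synthase, had 16.5, 18.3, 10.0, 12.7 and 6.06 CPM in metastases and 11.6, 3.38, 6.78, 2.19 and 14.2 CPM in normal lung (log2 fold change 0.74 ± 0.98, adjusted p = 0.662). Lss, lanosterol synthase, had 1.25, 58.8, 2.08, 2.82 and 20.5 CPM in metastases and 0.413, 11.5, 0.353, 3.05 and 6.45 CPM in normal lung (1.97 ± 1.25, adjusted p = 0.295), so that metastasis replicates 2 and 5 held most of its signal.

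Ebp (chrX:8185329-8193512, minus strand), the sterol delta-8 to delta-7 isomerase near the end of the route, was the lower member. It had 6.53, 7.87, 1.29, 4.96 and 9.38 CPM in metastases, against 59.2, 13.7, 32.1, 101 and 8.75 CPM in normal lung. Normal replicate 5 lay below metastasis replicate 5, and normal replicates 1 and 4 were the highest. The means were 6.01 ± 3.10 CPM in metastases and 42.9 ± 38.0 CPM in normal lung (SD, n = 5 each), and the log2 fold change was -2.84 ± 0.90 (adjusted p = 0.027). Without normal replicate 4 it was -2.28 (adjusted p = 0.127), without normal replicate 1 -2.72 (0.0556) and without metastasis replicate 4 -2.78 (0.0545), and it passed in 7 of the 10 fits that left out a library. It did not pass within libraries 1 and 2 (-2.32, adjusted p = 0.448) or within libraries 3 to 5 (-3.19, 0.0764).

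Sc5d (chr9:42251595-42264256, minus strand), the lathosterol oxidase that acts just after Ebp, lay just outside the threshold as Fads2 lay just inside it. It had 25.9, 35.9, 99.5, 37.7 and 45.9 CPM in metastases and 4.23, 8.26, 28.8, 5.45 and 6.67 CPM in normal lung, with 4 of 5 metastasis libraries above the highest normal library. Its log2 fold change was 2.20 ± 0.80 (adjusted p = 0.0533), and it passed in 11 of 25 alternative settings, DESeq2 (2.29, adjusted p = 0.00418) among them. Of the 10 fits that left out a library it passed in 2, without metastasis replicate 1 (2.33, adjusted p = 0.0384) or normal replicate 3 (2.96, 0.0207), and in the other 8 it did not, with adjusted p up to 0.143. Dhcr7, the reductase of the last step, had 35.7, 21.1, 0.546, 2.55 and 2.43 CPM in metastases and 11.1, 0.693, 18.5, 3.39 and 7.48 CPM in normal lung. Its log2 fold change of 0.60 ± 1.16 did not pass (adjusted p = 0.771), and it was 2.30 within libraries 1 and 2 and -2.42 within libraries 3 to 5 (adjusted p = 0.508 and 0.267).

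The remaining lanosterol genes had log2 fold changes above 0 without passing, except Tm7sf2 at -0.81 ± 1.71 (adjusted p = 0.789). Cyp51, lanosterol demethylase, had 3.28, 30.8, 9.73, 15.1 and 111 CPM in metastases and 34.2, 2.39, 10.2, 2.71 and 8.48 CPM in normal lung (log2 fold change 1.55 ± 0.99, adjusted p = 0.302). Nsdhl, which takes part in removing the C4 methyl groups, had 32.4, 22.1, 56.2, 85.6 and 26.5 CPM in metastases and 5.50, 18.7, 15.2, 26.1 and 34.7 CPM in normal lung (1.15 ± 0.74, adjusted p = 0.303). Hsd17b7, its ketoreductase partner, gave 1.37 ± 0.85 (adjusted p = 0.285) with 12.6 to 84.7 CPM in metastases and 1.59 to 32.5 CPM in normal lung. Msmo1, the C4 methyl oxidase, gave 0.94 ± 0.90 (adjusted p = 0.523) with 12.7 to 55.0 CPM in metastases and 2.54 to 53.5 CPM in normal lung. Tm7sf2, a C14 sterol reductase, was at 0.0338 to 7.17 CPM in metastases and 0 to 10.6 CPM in normal lung, mostly from 1 library in each group. Cyp51 overlaps Akap9, Fdft1 overlaps Ctsb and Lss overlaps 4930483K19Rik on the opposite strand, and Tm7sf2 overlaps Vps51 on its own strand. Whether reads were counted by strand is not given in the sources used here, and their counts are therefore uncertain.

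No gene of the early steps passed. Hmgcs1, HMG-CoA synthase, had 12.3, 37.3, 26.3, 11.1 and 50.7 CPM in metastases and 58.5, 10.4, 31.6, 8.68 and 36.8 CPM in normal lung. Its log2 fold change was -0.08, with an approximate 95% interval of -1.62 to 1.45 (adjusted p = 0.957), and the groups spanned almost the same range. Mvk and Pmvk, the kinases of the next steps, were at 0.0496 to 4.97 and 1.14 to 12.9 CPM in metastases and at 0.0359 to 14.4 and 0.0717 to 6.03 CPM in normal lung. Idi1, isopentenyl diphosphate isomerase, was at 0.149 to 3.53 CPM in metastases and 0.0522 to 5.65 CPM in normal lung, and Fdps, farnesyl diphosphate synthase, at 0.643 to 3.98 CPM in metastases and 0.299 to 10.6 CPM in normal lung. Mvd, the decarboxylase of the route, was under the count filter and was seen above 1 CPM only in metastasis replicate 1 (5.41 CPM) and normal replicate 2 (7.17 CPM). Log2 fold changes of the 4 tested genes after Hmgcs1 ran from -0.61 to 1.16 with SEs of 1.28 to 1.55, so differences of several fold could not be seen for them.

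**Figure D3:**
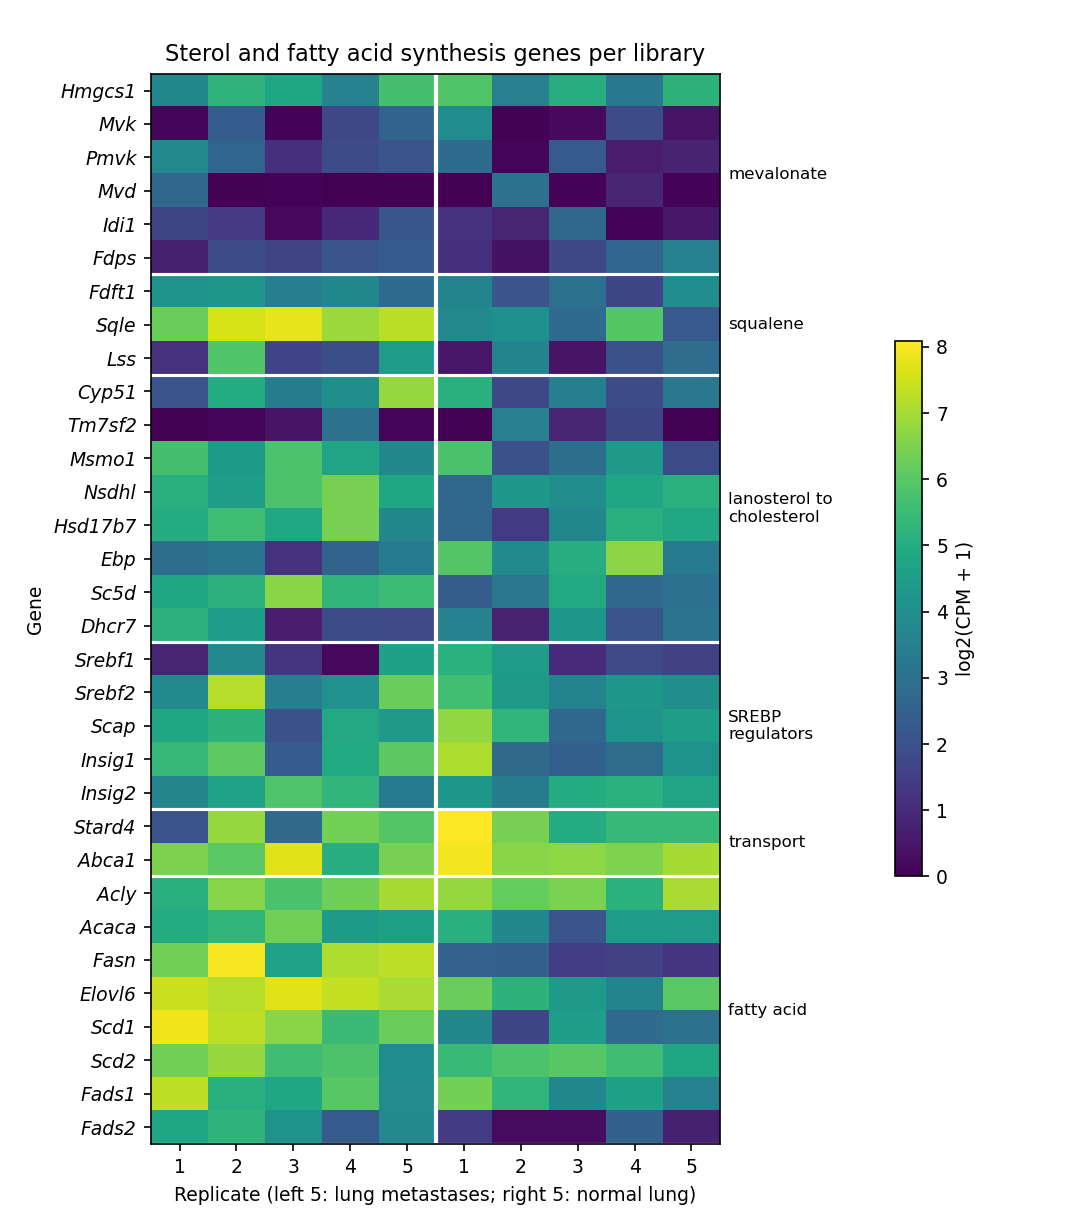
Level of the 32 members, colour giving log2(CPM + 1), with metastasis replicates 1 to 5 in the left columns and normal replicates 1 to 5 in the right columns, grouped by step. The rows of Fasn, Scd1, Sqle and Elovl6 are bright on the left throughout, while normal replicate 1 is the brightest normal column for Stard4, Abca1, Insig1 and Scap.

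None of the regulators passed. Srebf2, which encodes the SREBP that chiefly drives sterol genes, had 13.6, 145, 10.2, 16.1 and 74.6 CPM in metastases and 48.6, 19.9, 11.6, 19.1 and 15.5 CPM in normal lung. Metastasis replicates 2 and 5 were above all normal libraries and the other 3 were not (log2 fold change 1.18 ± 0.80, adjusted p = 0.335). Srebf1, whose protein chiefly drives fatty acid genes, had 0.778, 13.0, 1.39, 0.145 and 23.6 CPM in metastases and 34.6, 21.2, 0.941, 2.45 and 1.89 CPM in normal lung (-0.65 ± 1.27, adjusted p = 0.774). Its log2 fold change was -2.00 within libraries 1 and 2 and 2.24 within libraries 3 to 5 (adjusted p = 0.576 and 0.408). Its counts are uncertain where it overlaps Rai1 on the opposite strand. Insig1, itself a sterol-responsive gene, had 41.0, 66.0, 4.07, 29.9 and 65.3 CPM in metastases and 137, 5.92, 4.71, 6.39 and 16.9 CPM in normal lung. With normal replicate 1 as the highest of the 10 libraries its log2 fold change was 0.27 ± 0.91 (adjusted p = 0.874). Insig2 ran from 8.95 to 56.7 CPM in metastases and from 9.72 to 34.8 CPM in normal lung (0.23 ± 0.78, adjusted p = 0.874), and Scap, the escort protein, from 2.98 to 36.1 CPM in metastases and from 5.60 to 110 CPM in normal lung (-0.77 ± 0.84, adjusted p = 0.584).

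The carriers did not pass either. Abca1, the efflux pump that loads cholesterol onto apolipoproteins, had 88.9, 64.0, 204, 32.1 and 85.5 CPM in metastases and 244, 99.0, 104, 90.2 and 130 CPM in normal lung. In 4 of 5 metastasis libraries it lay below the lowest normal library, with replicate 3 as the exception (log2 fold change -0.49, interval -1.50 to 0.51, adjusted p = 0.564). Stard4, a carrier of cholesterol between membranes, had 3.32, 111, 5.95, 80.6 and 60.1 CPM in metastases and 271, 84.2, 30.8, 41.5 and 41.5 CPM in normal lung (-0.84 ± 0.79, adjusted p = 0.513). Metastasis replicates 1 and 3 lay far below the rest of both groups.

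Single libraries carried much of the spread. Normal replicate 1 was the highest of its group for 15 of 32 members and the highest of all 10 libraries for 7. Metastasis replicate 2 was the highest of its group for 9. Of 30 members with a value in both library sets, 12 had opposite signs within libraries 1 and 2 and within libraries 3 to 5. Dhcr7, Srebf1 and Mvk (-1.73 and 1.21) were the widest apart. None of the 12 was a called member, but the calls were made on these same libraries, which favours like signs in both sets. The share of all genes with opposite signs was not computed. The median SD of log2(CPM + 1) over the tested members was 1.01 in metastases and 1.16 in normal lung, where that over all tested genes was 1.18 in metastases and 0.93 in normal lung. The median biological coefficient of variation was 0.892 for the members and 0.954 for all genes.

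Levels of the members were compared with each other per transcript length, with the FPKM values of the authors' table. These values do not follow the counts at a fixed scale. Acly had 8.14 FPKM at 32.6 CPM in metastasis replicate 1 and 2.72 FPKM at 53.9 CPM in metastasis replicate 3. Sqle had the highest median of the members in metastases, 59.2 FPKM, with 36.6, 59.2, 115, 51.6 and 61.5 FPKM in the metastasis libraries and 1.61, 6.18, 1.52, 11.0 and 1.28 FPKM in the normal libraries. Fasn followed at a median of 24.4 FPKM, Scd1 at 23.5, Elovl6 at 20.9 and Acly at 20.5, with ranges that overlap one another. In normal lung Acly was first at 24.2 FPKM and Ebp second at 17.7, followed by Scd2 at 11.5. The same genes stood elsewhere in the other tissue: Ebp had the rank of 22 in metastases with 3.77 FPKM, and in normal lung Sqle, Scd1 and Fasn had the ranks of 21, 23 and 28 with 1.61, 1.54 and 0.448 FPKM.

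Ratios of paralogs within a library do not depend on how libraries are scaled. The log2 ratio of Scd1 to Scd2 counts was 1.56, 0.48, 1.06, -0.33 and 2.41 in metastasis replicates 1 to 5, against -1.77, -4.63, -1.50, -2.97 and -1.86 in normal replicates 1 to 5. Every metastasis library was above every normal one, Scd1 being the more counted paralog in 4 of 5 metastasis libraries and Scd2 in all 5 normal libraries. The means were 1.04 ± 1.04 in metastases and -2.55 ± 1.29 in normal lung (SD, n = 5 each), a difference of 3.58 (two-sided exact permutation test over 252 splits, p = 0.00794, the smallest possible; 0.0317 after Benjamini-Hochberg adjustment over 4 ratios). The ratio of Fads1 to Fads2 averaged 1.43 ± 1.79 in metastases and 5.10 ± 2.02 in normal lung (difference -3.67, exact permutation p = 0.0317, adjusted 0.0635). The ratio of Srebf1 to Srebf2 averaged -3.75 ± 1.86 in metastases and -2.00 ± 1.67 in normal lung (difference -1.75, exact permutation p = 0.175, adjusted 0.233). That of Insig1 to Insig2 averaged 0.38 ± 2.61 in metastases and -0.72 ± 2.22 in normal lung (difference 1.10, exact permutation p = 0.476, adjusted 0.476). The first ratio alone passed after adjustment. Scd1 and Fads2 had been called higher in these same libraries, while Scd2 and Fads1 had not. The ratios that hold them therefore restate those calls in part and are not separate support for them.

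**Figure D4:**
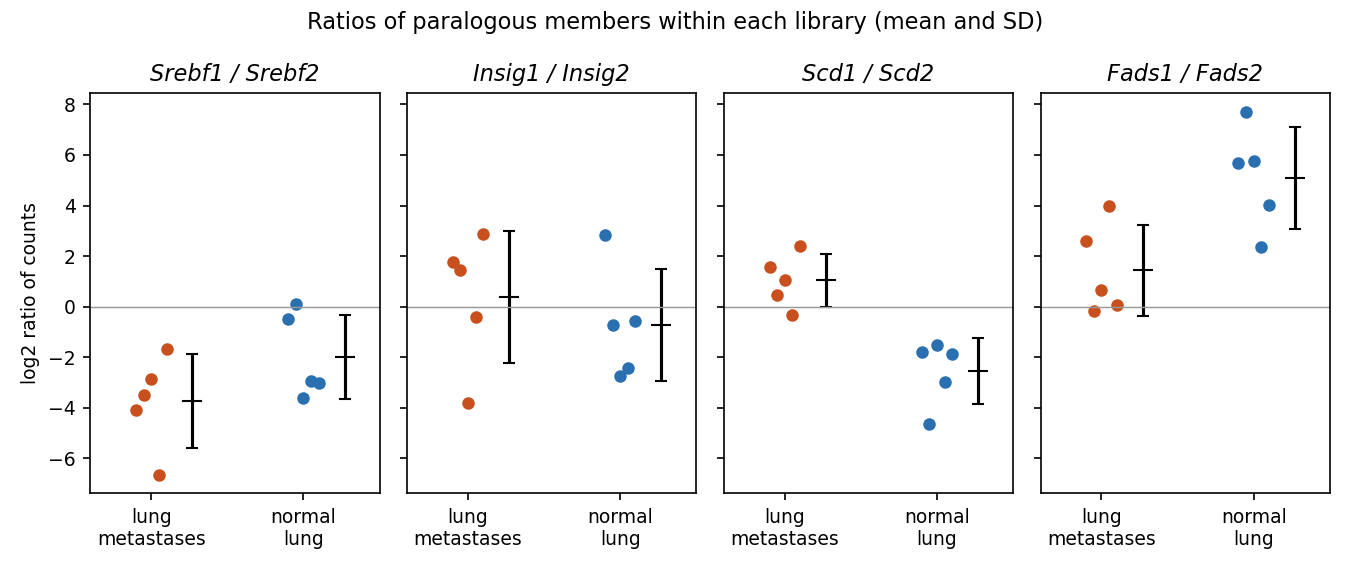
Log2 ratio of the counts of paralogous members in each library (y axis; 0 means equal counts), metastases left and normal lung right, with the mean and 1 SD beside the points. Scd1 over Scd2 is the panel without overlap, from -0.33 to 2.41 in metastases and from -4.63 to -1.50 in normal lung.

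Other genes of the pathway were read from lists chosen by function. Of 78 listed genes 77 were in the files and 65 were tested, of which 7 were higher (10.8%, beside 12.0% of all genes) and 4 lower, with a median log2 fold change of -0.10. Of the 12 tested genes of cholesterol uptake, storage and oxysterols 2 were higher. Lrp1, a receptor for remnant lipoproteins and many other ligands, had 424, 411, 173, 226 and 248 CPM in metastases, against 4.10, 2.63, 4.38, 3.73 and 4.08 CPM in normal lung (log2 fold change 6.29 ± 0.53, adjusted p = 1.34e-08). Soat1, which esterifies cholesterol for storage, had 47.5, 104, 285, 308 and 400 CPM in metastases, against 2.95, 10.5, 42.3, 29.1 and 20.8 CPM in normal lung (3.44 ± 0.67, adjusted p = 0.000748). Both are separated by group, and both are also well expressed in macrophages and other non-endothelial cells. The part of such cells in these values was not tested.

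Among 8 tested genes of acetyl-CoA and NADPH supply, G6pdx, which feeds NADPH to lipid synthesis, was higher (2.67 ± 0.77, adjusted p = 0.015), with overlapping groups. The other 7 did not pass. Among them Acss2, an acetyl-CoA synthetase, was lower in every metastasis library than in any normal one. It had 0.0338 to 0.546 CPM in metastases and 1.76 to 11.9 CPM in normal lung (-3.58 ± 1.43, adjusted p = 0.0798). Among 7 tested genes of other elongation and desaturation Elovl7, an elongase of saturated very long acids, was higher (4.14 ± 1.10, adjusted p = 0.00899) and Elovl5, the elongase of polyunsaturated acids, was lower. Elovl5 had 183, 134, 100.3, 158 and 97.9 CPM in metastases, against 392, 433, 424, 455 and 401 CPM in normal lung, with no overlap (-1.64 ± 0.37, adjusted p = 0.00232). Elovl6 and Elovl5 thus differed between the tissues in opposite directions. Of 11 tested genes of SREBP processing and turnover, Sec24d, a subunit of the coat that carries cargo from the endoplasmic reticulum, was higher (2.46 ± 0.75, adjusted p = 0.0221), though not without metastasis replicate 2 (2.06, adjusted p = 0.0794), normal replicate 1 (2.24, 0.0525) or normal replicate 5 (2.27, 0.0568). Vcp, a segregase of protein degradation, was higher too (1.74 ± 0.60, adjusted p = 0.0425). The Vcp call rests on metastasis replicate 3 at 482 CPM, without which its log2 fold change was 0.57 (adjusted p = 0.501), and it was also lost without any single normal library (1.67 to 1.77, adjusted p from 0.0688 to 0.086). Of 8 tested LXR receptors and targets Smpdl3a, an LXR-induced phosphodiesterase, was lower (-2.06 ± 0.68, adjusted p = 0.0328), a call kept only without metastasis replicate 5, normal replicate 2 or normal replicate 4 and lost without any of the others (-2.03 to -1.80, adjusted p from 0.0505 to 0.0712). Of 9 tested genes of acyl-CoA activation and glycerolipid synthesis Lpin1, a phosphatidate phosphatase, was lower (-2.87 ± 1.02, adjusted p = 0.0483), a call kept without metastasis replicate 1 (-4.76, adjusted p = 0.00142) and lost without any other library (-3.05 to -2.57, adjusted p from 0.0512 to 0.1). Of 10 tested genes of isoprenoid use Nus1, a subunit of the dolichol-making prenyltransferase, was higher (1.85 ± 0.44, adjusted p = 0.00403) and Pdss2, a subunit of the enzyme that makes the ubiquinone tail, was lower (-4.36 ± 1.33, adjusted p = 0.0219). Without metastasis replicate 4 Pdss2 was at -4.24 (adjusted p = 0.0505) and without normal replicate 1 at -3.80 (0.0659).

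Levels of cell type markers moved with these results and their part in them was not tested. The summed level of the 17 sterol enzymes was 313 to 512 CPM in metastases (median 465) and 108 to 279 CPM in normal lung (median 181), and that of the 8 fatty acid genes 554 to 872 CPM in metastases and 151 to 365 CPM in normal lung. Without Sqle the other 16 sterol enzymes summed to 238 to 314 CPM in metastases and 92.6 to 266 CPM in normal lung, which overlap, and without the 4 called genes the other 4 fatty acid genes summed to 180 to 301 CPM in metastases and 127 to 270 CPM in normal lung, which overlap too. The medians of these remainders were 299 CPM in metastases and 175 CPM in normal lung for the sterol enzymes. For the fatty acid genes they were 216 CPM in metastases and 177 CPM in normal lung. The genes left out had been called higher in these same libraries, so their removal narrows the gaps in advance and does not show where the gaps came from. The gene in brackets after each marker list is the one of highest mean CPM over the 10 libraries. Counts called in each list stand beside 12.0% of all tested genes higher and 8.22% lower. The 14 cell division genes summed to 1811 to 3489 CPM in metastases and 40.1 to 134 CPM in normal lung (Top2a), and all 14 were higher. Of 8 tested fibroblast markers 5 were higher, and the list summed to 370 to 940 CPM in metastases and 6.74 to 81.9 CPM in normal lung (Col3a1). Of 8 tested leukocyte markers 5 were higher (1033 to 1932 CPM in metastases, 70.4 to 237 CPM in normal lung; Lyz2). The platelet list summed to 670 to 12115 CPM in metastases and 182 to 900 CPM in normal lung (Ppbp), and 2 of 5 tested genes were higher. Epithelial markers summed to 65.3 to 203 CPM in metastases and 11.4 to 780 CPM in normal lung. Of 7 tested, Krt8 and Lamp3 were higher, Scgb1a1 was lower and 4 were not called. Scgb1a1 has the highest mean of that list through the 752 and 558 CPM of normal replicates 3 and 5, being at 3.57 to 23.9 CPM in the other normal libraries and at 3.40 to 7.10 CPM in metastases. Krt8 had 4.61 to 42.2 CPM in metastases and 0.162 to 0.339 CPM in normal lung, with no overlap. Its log2 fold change was 6.47 ± 1.20 (edgeR adjusted p = 0.000497). The part of the injected tumour cells in the member and marker levels was not tested. Of the adipocyte markers Adipoq, Plin1 and Lep were at 0 in all 10 libraries, and the list of 6 (Cidec) summed to 0 to 6.63 CPM in metastases and 0 to 0.702 CPM in normal lung. Metastasis replicates 1 to 5 had pan-endothelial sums of 7724, 4726, 4728, 1814 and 1190 CPM and fatty acid sums of 819, 872, 554, 564 and 558 CPM. Without metastasis replicates 4 and 5 the same 5 members were higher, and Ebp did not pass (-3.06, edgeR adjusted p = 0.0769). The metastasis libraries kept still had pan-endothelial sums below the lowest normal sum of 13546 CPM. That fit therefore does not compare libraries of like endothelial level.

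**Figure D5:**
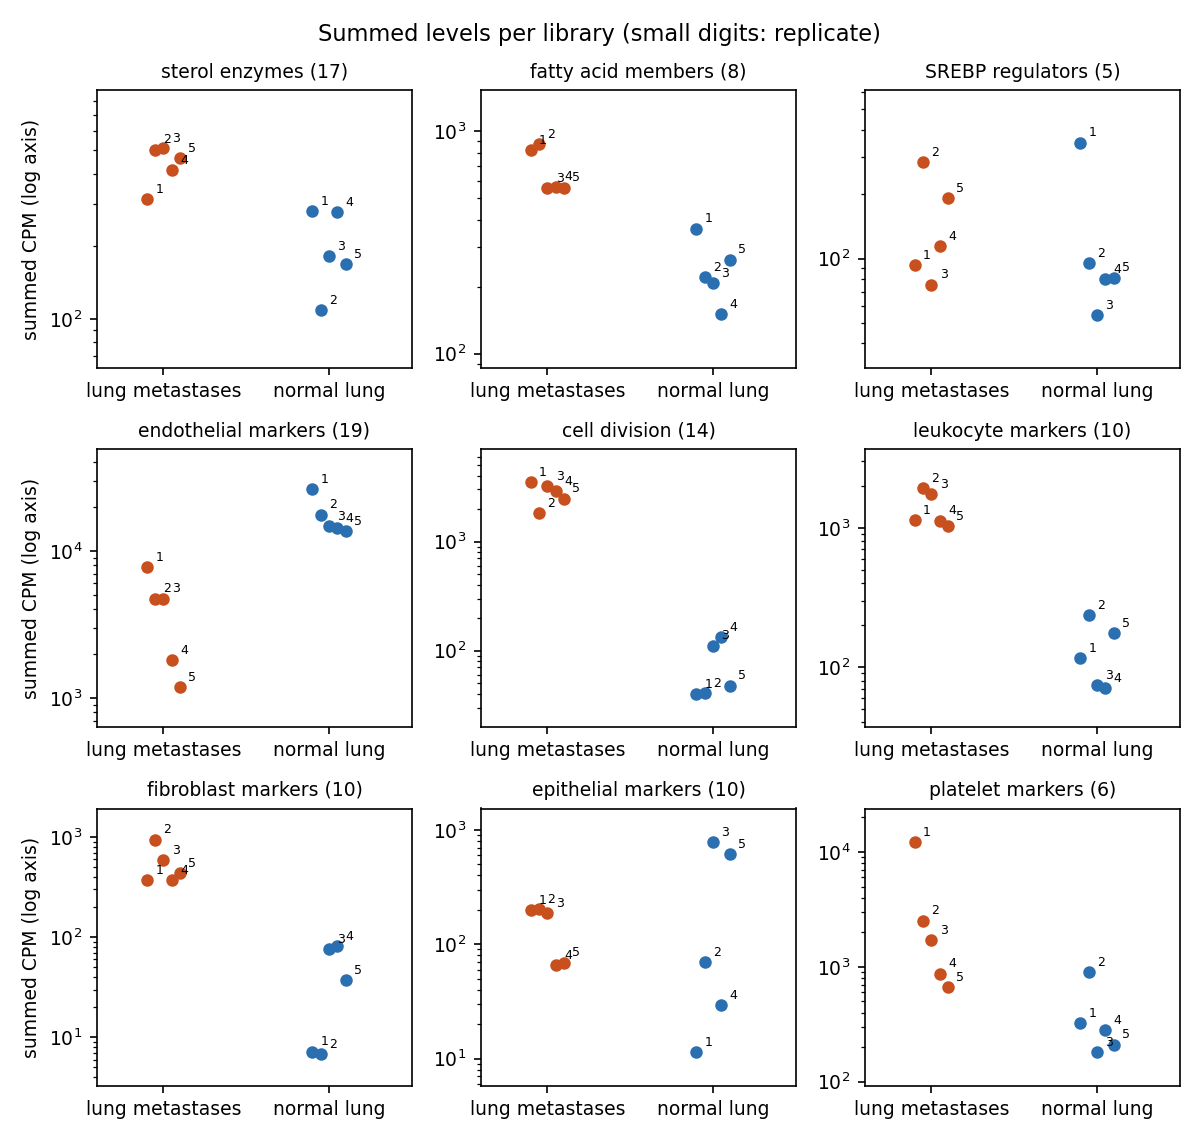
Summed CPM (log axis) of the member groups and of marker lists in each library, metastases left and normal lung right, small digits giving the replicate. The sums of sterol enzymes, fatty acid genes, cell division, leukocyte and fibroblast markers lie higher in every metastasis library than in any normal one, and those of endothelial markers lie lower. Without Sqle the sterol sums overlap, at 238 to 314 CPM in metastases (median 299) and 92.6 to 266 CPM in normal lung (median 175).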

How the data were processed

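The authors deposited 1 file of raw gene counts for each of the 10 sorted samples and 1 table of FPKM values. FPKM values are levels scaled by transcript length and depth. Per the submitters' processing notes the tools were HTSeq 0.6.1, TopHat2 2.0.13, DESeq2 1.6.3 and Cufflinks 2.2.1, with mm10 and GRCm38. The lines for reads without a feature, 57.9 to 73.7% of the total in metastases and 55.4 to 64.7% in normal lung, were left out.

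Of 24538 genes, filterByExpr at its defaults left 11823. They were compared with edgeR 4.0.16 in R 4.3.3 (TMM scaling, quasi-likelihood test with robust dispersions, no covariate, two-sided, Benjamini-Hochberg adjustment over all tested genes). The SE is the size of the log2 fold change divided by the root of the F value, and approximate intervals follow from it. Ratios took 0.5 added counts. Gene positions are from a GRCm38 annotation that may differ from the authors'.

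Members, lists, named genes and alternatives (DESeq2 1.42.0, limma 3.58.1 on log2(FPKM + 1), other scalings and filters, a replicate block, library sets, leaving out each library) were chosen with earlier results of these data known. Every member is named, as are the called genes of other lists (up to 2 each way), the sort genes and the marker of highest mean CPM in each list. Krt8, Lamp3 and Acss2 were named after their values were seen. Replicate numbers were not taken to pair libraries, since the deviations of same-numbered libraries correlated at -0.0081 to 0.177 across genes.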

Additional observations from a re-analysis of the deposited data

Results flagged for a closer look

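In each group of 5 libraries the level of every member was examined for a library far from the others, on the log2(CPM + 1) scale, by the gap to its nearest neighbour over the range of the group (Dixon's 95% critical value of 0.71). Of 64 such groups 4 held one (6.25%), where chance gives about 1 in 20. Mvd was at 5.41 CPM in metastasis replicate 1 and at 0 to 0.0496 CPM in the other metastasis libraries, and at 7.17 CPM in normal replicate 2 and 0 to 0.835 CPM in the other normal libraries. Tm7sf2 was at 7.17 CPM in metastasis replicate 4 and at 0.0338 to 0.347 CPM in the others of that group. Scap was at 2.98 CPM in metastasis replicate 3, below the 19.4 to 36.1 CPM of the other metastasis libraries. None of these genes was called, and the cause of each value was not tested.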

How the results depend on the processing

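Fasn and Scd1 passed in all 25 alternative settings, Sqle and Elovl6 in 23, Fads2 in 16 and Ebp in 14. Sc5d passed in 11. The 5 higher members became 23 with scaling to the pan-endothelial genes, 3 at a threshold of 0.01, 2 within libraries 1 and 2 and 3 within libraries 3 to 5, and were 4 to 6 without single libraries. The 1 lower member became 0 with library totals, pan-endothelial scaling, limma on log2(FPKM + 1) with no filter, the threshold of 0.01, the replicate block, either library set alone and without metastasis libraries 4 and 5, and was 0 to 1 without single libraries. Of all genes the 1420 higher and 972 lower became 6631 and 19 with pan-endothelial scaling, 869 and 453 at the threshold of 0.01, 487 and 201 in libraries 1 and 2 alone, and the lower ones 527 without metastasis libraries 4 and 5.

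Pan-endothelial scaling shifted the all-gene median by 2.60 (log2), library totals by 0.26 and RLE scaling by 0.08. Under the first, signs turned for Hmgcs1 (2.94), Stard4 (2.38), Abca1 (2.06), Acly (2.83), Ebp (0.051), Smpdl3a (1.29) and Elovl5 (0.90). Relative to the median of all genes Ebp was then at -2.61. Another 61 of 765 member values changed sign with no call in either fit.

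The replicate block gave 6 higher members and 0 lower, with Ebp at -2.64 (edgeR adjusted p = 0.074). The normal library best correlated with a metastasis library bore the same number for metastasis replicates 2 and 4 only. The difference in the log2 count ratio Scd1 over Scd2 was 3.16 in libraries 3 to 5 alone (exact permutation adjusted p = 0.4) and 3.06 to 3.92 without single libraries, with adjusted p of 0.0317 or 0.0635, fewer splits being available. The difference in the log2 count ratio Fads1 over Fads2 was -4.35 to -3.02 without single libraries and passed without normal replicate 4 (exact permutation adjusted p = 0.0317). Ratios in libraries 1 and 2 alone were not run. Low counts limit Mvd, Tm7sf2, Mvk and Idi1, under 1 CPM in 8, 7, 5 and 5 libraries, Pmvk and Srebf1 (3 each), Fdps, Lss and Dhcr7 (2 each) and the called Fads2, under 1 CPM in 3 normal libraries.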
